A study of Arabidopsis thaliana with 9 samples.

Results

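The genes described here are those encoded in the mitochondrial genome of Arabidopsis thaliana. They were taken as all listed genes with a locus on Mt and an identifier beginning ATMG. There were 32 such genes among the 2507 genes listed in either comparison of the series, 31 in the tables for the line overexpressing SRT1 and 21 in the tables for the SRT1 RNA interference line, with 20 in both. Of the 32, 18 have a known role in respiration, protein synthesis or intron splicing and 14 are open reading frames without a known function, called ORFs.

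RNA was sequenced from whole seedlings (leaf, stem and root) grown for 14 days on diluted Murashige and Skoog medium. The groups were OX, the SRT1 overexpression line OX-SRT1-1, RNAi, the SRT1 interference line RNAi-1, and wild type of the Columbia accession, with 3 libraries in each of the 3 groups. Each transgenic group is thus 1 line. The sample titles call them OX-AtSRT1, R-AtSRT1 and col, and the tables ox5, r5 and col. SRT1 encodes a sirtuin, a protein deacetylase that uses NAD.

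The plant mitochondrial genome encodes some subunits of the respiratory complexes, proteins of cytochrome c maturation, part of the mitochondrial ribosome and the ribosomal RNAs. The remaining subunits are made from nuclear genes and imported. Several mitochondrial genes are split, and their pieces are transcribed separately and joined by trans-splicing. Plant mitochondrial transcripts carry no stable poly(A) tail, and short tails mark them for decay. The library kit named in the labels is one that enriches polyadenylated RNA, so levels here need not follow total mitochondrial RNA. It does not mark strand, so a gene and a transcript antisense to it cannot be told apart. In bulk seedlings, fewer cells of a type and less RNA per cell cannot be told apart.

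The tables hold a single FPKM value for each group (fragments scaled to transcript length and to all mapped fragments) and list only genes that the authors called different by at least 2-fold. No SD or test across libraries could be computed, and sequencing depth is unknown. A gene absent from a list is not shown to be stable, and markers of the labelled tissues could not be checked. Folds are ratios of the 2 deposited values of a gene. SRT1 itself was 6.05 FPKM in OX and 1.75 FPKM in wild type. In the RNAi tables it was 2.37 FPKM under the label RNAi, against 0.419 FPKM under the label wild type, which goes against the RNAi label. It stood in the list titled lower in RNAi, so title and labels conflict. The 377 entries of that list share this conflict. These SRT1 values are themselves uncertain. Of the 3092 entries of the 4 lists, this was the 1 whose FPKM values (log2 ratio -2.50) did not give its deposited log2 ratio (-2.37) within 0.001. Its value labelled wild type was 0.239 times that in the OX tables.

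Much of this genome also lies on a nuclear chromosome, which bears on which gene a read is assigned to. In the RefSeq assembly TAIR10.1, 72.2% of the 367808 bases of the mitochondrial genome matched chromosome 2 in alignments of at least 1000 bases, at a mean identity of 99.9%. These alignments lay between positions 3239038 and 3509765. The assembled chromosome is known to hold only part of this insertion. ATP9 and MATR show how alike the copies are. The ATP9 gene, for a subunit of the proton-conducting ring of ATP synthase, is the same in all 225 bases at MT:270961-271185 (minus strand) and at chr2:3251856-3252080 (minus strand). The sequences are genomic and unedited, written 5′ to 3′, and the first serves for both places.

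ATP9, mitochondrial and chromosome 2: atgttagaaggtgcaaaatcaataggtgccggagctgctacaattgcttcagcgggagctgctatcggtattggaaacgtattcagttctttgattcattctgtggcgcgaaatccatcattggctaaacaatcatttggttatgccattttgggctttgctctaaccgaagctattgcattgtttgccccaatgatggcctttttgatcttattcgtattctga

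The MATR gene encodes a maturase, a protein of intron splicing. It differs from its chromosome 2 copy at 5 of 1971 bases. The stretch with most differences in 120 bases is shown, from MT:231219-231338 (plus strand) and chr2:3402448-3402567 (minus strand), and capitals mark the 2 bases that differ.

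MATR, mitochondrial: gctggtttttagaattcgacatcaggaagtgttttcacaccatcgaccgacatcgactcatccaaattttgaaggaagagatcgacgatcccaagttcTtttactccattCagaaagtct
MATR, chromosome 2: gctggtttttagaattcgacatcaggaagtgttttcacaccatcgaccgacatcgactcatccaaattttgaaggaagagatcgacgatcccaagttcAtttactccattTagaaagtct

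The mitochondrial genes were lower in OX than in wild type. All 31 listed members were lower and 0 higher, where 42.3% of the 1966 entries of the OX tables were lower. The median fold was 5.32, in a range of 2.54 to 26.3, and it was 2.60 over all 832 entries lower in OX. Folds of at least 5 were found for 16 of the 31, against a share of 19.0% of the entries lower in OX, and folds of at least 10 for 10 of the 31, against 10.6%. Chloroplast-encoded genes moved with them, 56 of 56 being lower in OX with a median fold of 22.8, and their part in the result was not tested.

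**Figure D1:**
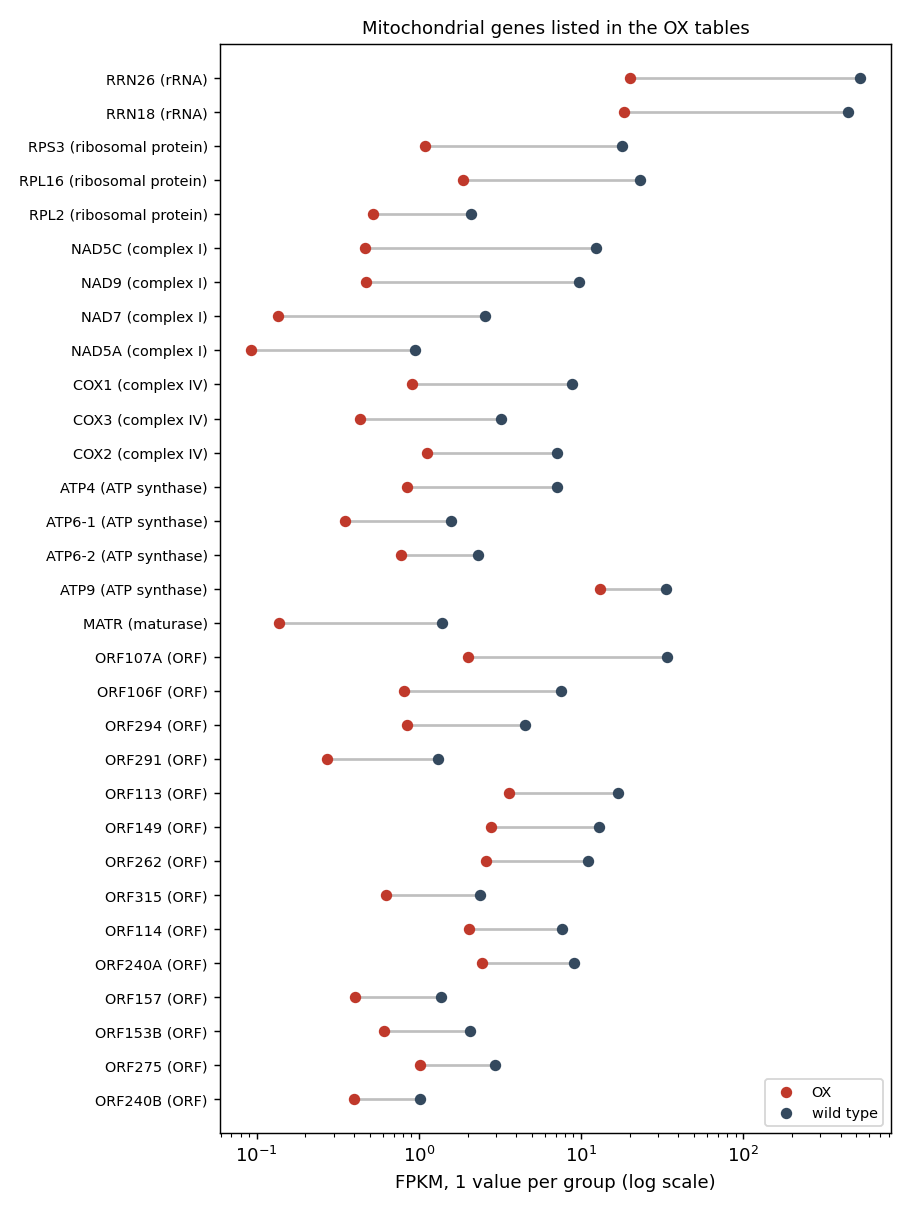
FPKM of the 31 mitochondrial genes of the OX tables, 1 deposited value per group on a log axis, in OX (red) and wild type (dark blue), ordered by role and then by fold. The red point lies left of the dark blue one in every row, by 2.54-fold for ATP9 up to 26.3-fold for NAD5C.

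The ribosomal RNAs were the most abundant members. RRN26, the large-subunit rRNA (Mt, 8848 to 11415, TAIR10), was 20.1 FPKM in OX and 527 FPKM in wild type, 26.2-fold lower. RRN18, the small-subunit rRNA (361350 to 363284), was 18.3 FPKM in OX and 442 FPKM in wild type, 24.1-fold lower. Both stayed above all other members but were among the 3 with the largest folds. The summed FPKM of all 31 members was 81.3 in OX and 1217 in wild type. Without the 2 rRNAs the sums were 42.9 in OX and 249 in wild type.

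Of the 7 ribosomal protein identifiers with a role in the gene list, 3 were listed, all lower. RPS3, of the small subunit, was 1.10 FPKM in OX and 17.8 FPKM in wild type, 16.2-fold lower. RPL16, of the large subunit, was 1.86 FPKM in OX and 23.1 FPKM in wild type, 12.4-fold lower. RPS3 and RPL16 overlap at 1 deposited locus (25076 to 28733), and their levels depend on how reads were divided between them. RPL2, also of the large subunit (154744 to 157345), was 0.521 FPKM in OX and 2.11 FPKM in wild type, 4.04-fold lower.

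Complex I takes electrons from NADH, and 4 of its 14 identifiers were listed, all lower in OX by more than 10-fold. The piece NAD5C of the trans-spliced gene NAD5 (20571 to 22086) was 0.469 FPKM in OX and 12.4 FPKM in wild type. Its fold of 26.3 was the largest of the 31 members. The other listed piece of the same gene, NAD5A (140724 to 142998), was 0.0924 FPKM in OX and 0.948 FPKM in wild type, 10.3-fold lower. NAD5A is matched in full by chromosome 2, where AT2G07711, with NAD5 sequence, was 1.04 FPKM in OX and 4.72 FPKM in wild type, 4.53-fold lower. The level of NAD5A therefore depends on how reads were divided, and NAD5C has no such nuclear match. NAD9 (23663 to 24235) was 0.476 FPKM in OX and 9.75 FPKM in wild type, 20.5-fold lower. NAD7 (132071 to 138153) was 0.135 FPKM in OX and 2.57 FPKM in wild type, 19.0-fold lower. NAD7 is also matched in full by chromosome 2. There AT2G07709, with NAD7 sequence, was 2.47 FPKM in OX and 9.44 FPKM in wild type, 3.82-fold lower. The level and fold of NAD7 therefore also depend on how reads were divided. All 4 mitochondrial entries were under 1 FPKM in OX. With 1 added to each FPKM value, the folds were 9.09 for NAD5C, 7.28 for NAD9, 3.14 for NAD7 and 1.78 for NAD5A. NAD7 and NAD9 encode subunits of the peripheral arm of complex I, and NAD5 a subunit of its membrane arm.

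All 3 mitochondrial genes of complex IV, cytochrome c oxidase, were listed, with folds close to each other. COX1, the catalytic subunit (349830 to 351413), was 0.904 FPKM in OX and 8.80 FPKM in wild type, 9.74-fold lower. COX2, which receives electrons from cytochrome c (40502 to 42628), was 1.12 FPKM in OX and 7.18 FPKM in wild type, 6.38-fold lower. COX3, a core subunit without a redox centre (217631 to 219077), was 0.433 FPKM in OX and 3.21 FPKM in wild type, 7.41-fold lower.

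ATP synthase had 4 of 6 identifiers listed, 3 of them with folds under 5. ATP4, a stalk subunit deposited under the symbol ORF25 (188084 to 188662), was 0.850 FPKM in OX and 7.16 FPKM in wild type, 8.43-fold lower. ATP9 (278649 to 279152) was 13.2 FPKM in OX and 33.5 FPKM in wild type, and its fold of 2.54 was, with that of ORF240B, the smallest of the 31. The duplicated genes ATP6-1 and ATP6-2 encode the subunit that forms the proton channel with the ring. ATP6-1 (111587 to 112907) was 0.351 FPKM in OX and 1.59 FPKM in wild type, 4.52-fold lower. ATP6-2 (296820 to 298204) was 0.777 FPKM in OX and 2.31 FPKM in wild type, 2.97-fold lower. Sequence shared by these copies makes the level of each uncertain. MATR, at a locus of 143219 to 147048 (3830 bases), was 0.138 FPKM in OX and 1.40 FPKM in wild type, 10.2-fold lower. With 1 added to both values its fold was 2.11. In TAIR10.1, MATR (231089 to 233059) lies within a piece of the gene NAD1 (230304 to 234132). AT2G07712, with its chromosome 2 copy, was 0.0379 FPKM in OX and 0.441 FPKM in wild type, 11.7-fold lower. The level of MATR therefore depends on how reads were divided. Cytochrome b (COB) and the 5 identifiers of cytochrome c maturation were in no list.

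The 17 genes with a role (the named genes) had larger folds than the 14 ORFs at similar median levels. The named genes had a median fold of 10.2 (range 2.54 to 26.3), and the ORFs one of 4.02 (range 2.54 to 16.9). The ratio of these medians was 2.53, and 1.34 with folds from log2(FPKM + 1). Without the 2 rRNAs the median of the named genes was 9.74. Their median level in OX was 0.777 FPKM against 0.931 FPKM for the ORFs, and in wild type 7.18 FPKM against 6.04 FPKM. The ORFs ranged over 0.272 to 3.62 FPKM in OX and 1.01 to 33.9 FPKM in wild type. A fold of at least 5 was found for 13 of the 17 named genes and 3 of the 14 ORFs. The ranges overlap, the genes are not replicates, and no test was made. Locus length differed between the classes, with medians of 1935 bases for the named genes and 723 bases for the ORFs, and its part in the result was not tested. Over the 31 members, the fold correlated with locus length (Spearman rho 0.43, Pearson r 0.44 on log2 values) and with the wild-type level (rho 0.42, r 0.53), as a description of genes that share libraries.

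Among the ORFs, ORF107A stood apart, at 2.01 FPKM in OX and 33.9 FPKM in wild type, 16.9-fold lower. ORF106F followed, at 0.810 FPKM in OX and 7.58 FPKM in wild type, 9.36-fold lower. ORF294 was 0.847 FPKM in OX and 4.51 FPKM in wild type, 5.32-fold lower. These 3 were the ORFs with folds of at least 5. ORF291 was 0.272 FPKM in OX and 1.32 FPKM in wild type, 4.87-fold lower. The smallest folds were those of ORF275, at 1.01 FPKM in OX and 2.96 FPKM in wild type, 2.92-fold lower, and of ORF240B, at 0.398 FPKM in OX and 1.01 FPKM in wild type, 2.54-fold lower. The other 8 ORFs lay between these folds. The q-values in the authors' deposited table also differed by class. They were at the smallest value of 0.00015 for 15 of the 17 named genes and 8 of the 14 ORFs, and reached 0.045 for ORF157. By the ratio of p to q, 33.4% of all tests behind the OX tables had that smallest p-value, so it ranks few genes.

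Large folds lay close together in the deposited coordinates. The members between 8848 and 28733 of Mt (RRN26, ORF107A, ORF315, NAD5C, NAD9, RPL16 and RPS3) had a median fold of 16.9. Of these 7, 6 were over 10, against a share of 10.6% of the entries lower in OX. RPL16 and RPS3 are at 1 shared locus. The exception was ORF315, at 0.632 FPKM in OX and 2.39 FPKM in wild type, 3.79-fold lower. The other 24 members had a median fold of 4.66, with 4 over 10: RRN18 and the neighbours NAD7, NAD5A and MATR between 132071 and 147048. Of the 14 ORFs, 9 lay within 1000 bases of another listed member. ORF107A starts 502 bases after RRN26, with folds of 16.9 and 26.2. ORF262 starts 310 bases after ATP9, with folds of 4.25 and 2.54, and ORF157 ends 183 bases before ATP6-1, with folds of 3.42 and 4.52. The windows were chosen after their values were seen. In TAIR10.1 the order differs, with RRN26 (140797 to 143965) near RRN18 (126289 to 128223) and away from NAD9 (24665 to 25237).

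**Figure D2:**
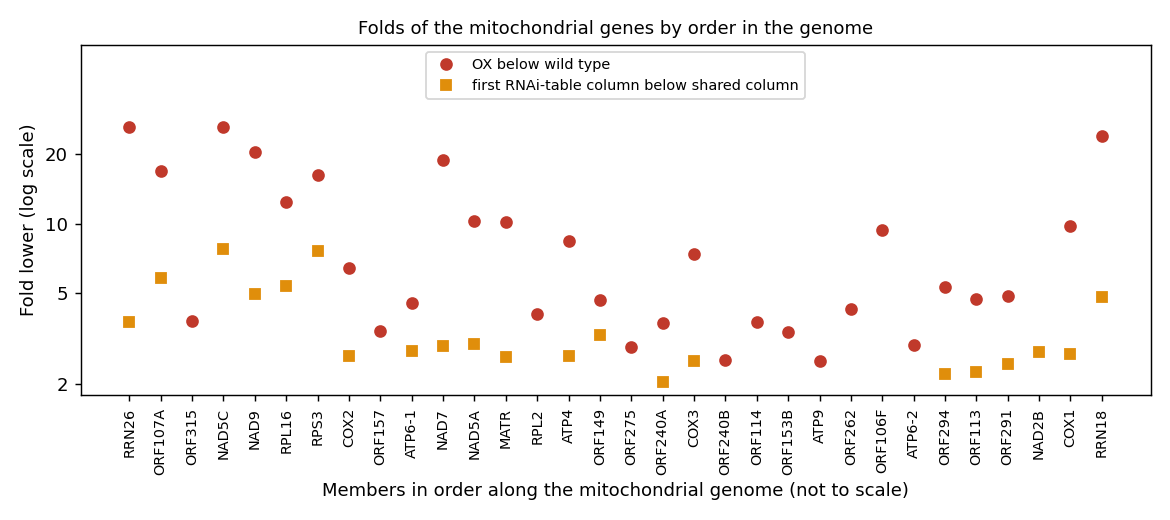
Fold of each of the 32 members, in their order along the mitochondrial genome and not to scale, on a log axis. Circles give OX below wild type and squares the first column of the RNAi tables below the shared column. The highest squares belong to members in the left part of the plot, from ORF107A to RPS3, where most circles exceed 10.

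The named genes were also divided by their nuclear copies, using RefSeq genes matched by symbol. A share of at least 72.5% of the length of 8 of the 17 genes was found in nuclear chromosomes at an identity of 95% or more (ATP6-1, ATP6-2, ATP9, COX3, MATR, NAD5A, NAD7 and RPL2). For the other 9 the share was at most 40.6% (RRN26, RRN18, NAD5C, NAD9, RPL16, RPS3, COX1, COX2 and ATP4). The 9 genes without a long nuclear copy had a median fold of 16.2 (range 6.38 to 26.3) and a median of 12.4 FPKM in wild type. The 8 genes with a long nuclear copy had a median fold of 5.96 (range 2.54 to 19.0) and a median of 2.21 FPKM in wild type. The median fold in OX was thus larger in the genes with little matching nuclear sequence in this assembly. Of these genes, RRN26, NAD5C, NAD9, RPL16 and RPS3 also lie in the window of large folds. For them, position and lack of a nuclear copy cannot be told apart. The wild-type level also differed between the genes with and without a long copy, and its part in the result was not tested. ORFs were not matched, because the mitochondrial sequence of TAIR10.1 is not the one with the deposited coordinates.

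The chromosome 2 copies themselves were in the tables too. Of the listed genes with identifiers from AT2G07660 to AT2G07840, 27 lay fully in sequence shared with the mitochondrial genome at an identity of 99.7% or more. The match used RefSeq spans, which equal the deposited spans for 5 of the 27, while the FPKM values belong to the deposited spans. AT2G07708 shares its deposited locus with AT2G07709, and AT2G07696 with AT2G07785. All 27 were lower in OX and 0 higher, where 42.3% of the 1966 entries of the OX tables were lower. Their median fold was 4.53 (range 2.16 to 14.6). It was 2.49 for all 745 nuclear genes lower in OX, which include these 27. AT2G07687, the copy of COX3, was 0.171 FPKM in OX and 2.49 FPKM in wild type, 14.6-fold lower. AT2G07671, which holds the ATP9 sequence printed above, was 28.7 FPKM in OX and 87.6 FPKM in wild type, 3.05-fold lower. This level was above that of ATP9 itself in both groups. Some mitochondrial genes that were in no list had a copy listed, with folds that varied widely. AT2G07698, with the sequence of ATP1, was 0.511 FPKM in OX and 5.30 FPKM in wild type, 10.4-fold lower. AT2G07727, with that of COB, was 0.403 FPKM in OX and 3.12 FPKM in wild type, 7.74-fold lower. AT2G07725, with that of RPL5, was 0.202 FPKM in OX and 2.21 FPKM in wild type, 10.9-fold lower. The OX levels of AT2G07687, AT2G07698, AT2G07727 and AT2G07725 were under 1 FPKM, where unknown depth limits a fold most. The copies with sequence of NAD4, RPS7, CCMFC and CCMFN1 were 6.47-fold, 5.71-fold, 3.32-fold and 3.02-fold lower. How the authors' counting divided reads between such pairs is not given in the sources used here, so the levels of both partners are uncertain.

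**Figure D3:**
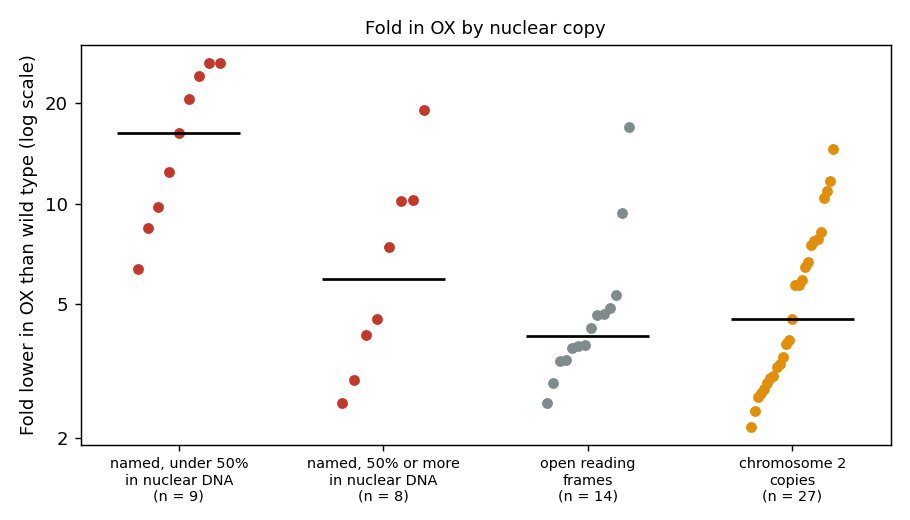
Fold lower in OX than in wild type, on a log axis, for named mitochondrial genes with under 50% and with 50% or more of their length in nuclear chromosomes, for ORFs and for the chromosome 2 copies. Each point is 1 gene and each line a median, 16.2, 5.96, 4.02 and 4.53 from left to right.

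In the RNAi tables the labels must be read with care. All 21 listed members were in the list titled higher in RNAi, whose first column is labelled wild type and second RNAi. For the 20 members also in the OX tables, the second column was 0.933 to 0.971 times the wild-type column of the OX tables, with a median of 0.947. Over all 570 genes in both sets of tables with a regularly written locus, the median was 0.946. SRT1 was the lowest at 0.239, and the other 569 lay between 0.899 and 0.983. A further 15 genes, none of them mitochondrial, have a locus written with added spaces in at least 1 table, and their ratios ran between 0.0045 and 15.1. For the members, the first column was 0.122 to 0.464 times that column. The second column is therefore called the shared column, and the RNAi tables are described as the first column relative to it. By the title and labels as deposited, the same members would be higher in RNAi than in wild type. The list titled lower in RNAi labels its columns the other way round, and held 0 members. Its 377 entries were those higher in the first column, which it labels RNAi, so its title and its labels conflict.

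Relative to the shared column, all 21 members were lower in the first column and 0 higher, where 66.5% of the 1126 entries of the RNAi tables were lower. The median fold was 2.80, in a range of 2.04 to 7.79, and 2.50 over all 749 lower entries, so most members lay near the rest of the list. Chloroplast-encoded genes again moved with them, 55 of 55 being lower with a median fold of 5.35, and their part in the result was not tested. Folds of at least 5 were found for 4 of the 21 (NAD5C, RPS3, ORF107A and RPL16), against a share of 10.8% of the lower entries, and folds of at least 10 for 0 of the 21, against 2.54%. All 4 lie in the window of large folds described for OX, and both comparisons share a column.

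**Figure D4:**
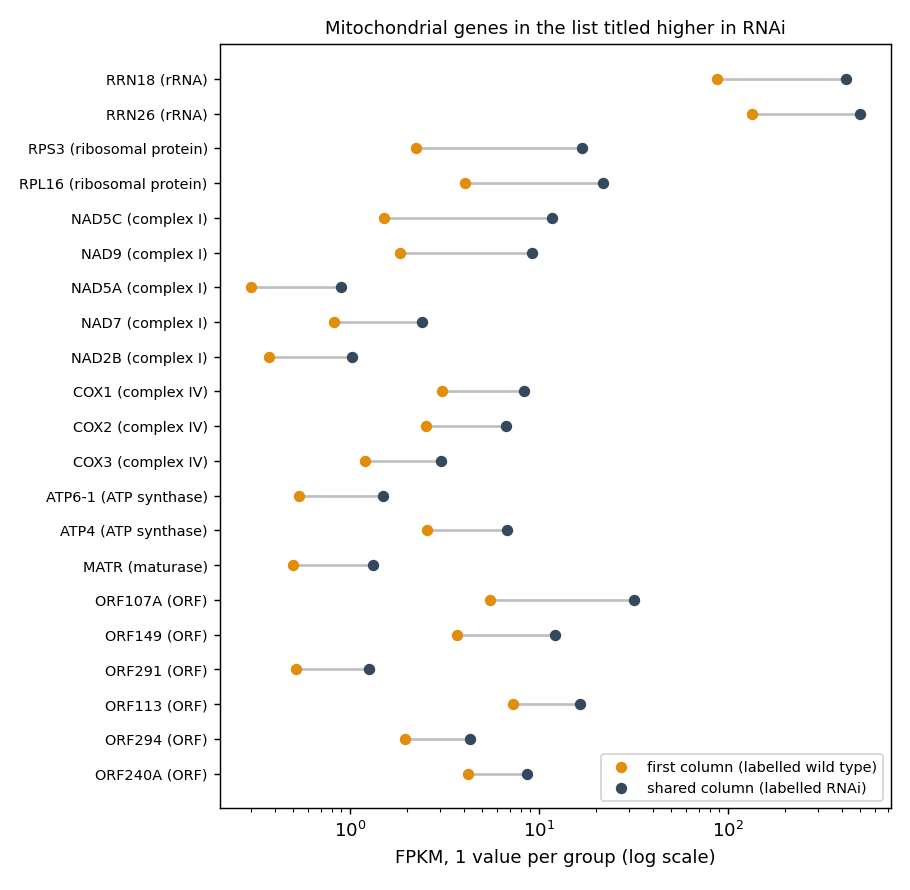
FPKM of the 21 mitochondrial genes in the list titled higher in RNAi, 1 deposited value per column on a log axis, in the first column (orange, labelled wild type) and the shared column (dark blue, labelled RNAi). The orange point lies left of the dark blue one in every row, by 2.04-fold for ORF240A up to 7.79-fold for NAD5C.

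The rRNAs kept more of their level here than in OX. RRN26 was 134 FPKM in the first column and 499 FPKM in the shared column, 3.73-fold lower. RRN18 was 87.9 FPKM in the first column and 422 FPKM in the shared column, 4.80-fold lower. Among the ribosomal proteins, RPS3 was 2.23 FPKM in the first column and 16.9 FPKM in the shared column, 7.58-fold lower, and RPL16 was 4.07 FPKM in the first column and 21.8 FPKM in the shared column, 5.36-fold lower. Among the named genes, only RPS3, RPL16 and the complex I piece NAD5C had folds over 5.

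Complex I had 5 listed entries, NAD5C and NAD9 with larger folds than the other 3. NAD5C was 1.51 FPKM in the first column and 11.8 FPKM in the shared column, 7.79-fold lower. NAD9 was 1.85 FPKM in the first column and 9.17 FPKM in the shared column, 4.96-fold lower. NAD5A, with the same limit, was 0.299 FPKM in the first column and 0.897 FPKM in the shared column, 3.0-fold lower. NAD7, also with that limit, was 0.818 FPKM in the first column and 2.41 FPKM in the shared column, 2.95-fold lower. NAD2B, a piece of the trans-spliced gene NAD2 (327890 to 333105), was listed here only, at 0.373 FPKM in the first column and 1.03 FPKM in the shared column, 2.76-fold lower.

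The complex IV genes, the ATP synthase genes and MATR lay within a narrow range of folds, 2.52 to 2.80. COX1 was 3.07 FPKM in the first column and 8.30 FPKM in the shared column, COX2 2.52 FPKM in the first and 6.70 FPKM in the shared column, and COX3 1.20 FPKM in the first and 3.04 FPKM in the shared column. ATP4 was 2.55 FPKM in the first column and 6.78 FPKM in the shared column, and ATP6-1 0.537 FPKM in the first and 1.5 FPKM in the shared column. MATR, with the limit given for OX, was 0.502 FPKM in the first column and 1.33 FPKM in the shared column. Of the ORFs, 6 were listed. ORF107A was 5.51 FPKM in the first column and 31.9 FPKM in the shared column, 5.79-fold lower. ORF149 was 3.29-fold lower, and ORF291, ORF113, ORF294 and ORF240A 2.46-fold, 2.28-fold, 2.22-fold and 2.04-fold. The median fold was 2.95 for the 15 named genes and 2.37 for the 6 ORFs, a smaller difference than in OX, which was not tested. Named genes without a long nuclear copy had a median fold of 4.80 (9 genes), and those with one 2.78 (6 genes). Their median levels in the shared column differed too, at 11.8 FPKM without and 1.42 FPKM with a long copy. The 13 listed chromosome 2 copies were all lower, where 66.5% of the 1126 entries of the RNAi tables were lower. Their median fold was 2.42. The median was also 2.42 for all 673 nuclear entries lower in the first column, which include these 13. AT2G07708, which is in both sets, has this fold.

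Set side by side, the 20 members listed in both comparisons had median folds of 9.95 in OX and 2.87 in the RNAi tables, and the fold was larger in OX for all 20. The first column of the RNAi tables held 1.32 to 6.66 times the OX level, with a median of 2.76. The ratio was highest for RRN26 (134 against 20.1 FPKM) and NAD7 (0.818 against 0.135 FPKM) and lowest for ORF149 (3.68 against 2.78 FPKM). The tables were normalised separately, and these ratios have no test. The 11 members listed for OX alone were 8 ORFs, ATP6-2, ATP9 and RPL2, with folds in OX of 2.54 to 9.36.

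Nuclear genes of the same pathway were looked up in the same tables. Of 35 nuclear genes for subunits and assembly factors of the respiratory chain, 13 for alternative oxidases, alternative NADH dehydrogenases and a related stress protein, and 2 transcription factors of mitochondrial stress signalling, 0 were listed in either comparison. Of 25 genes for mitochondrial transcription, RNA processing and genome maintenance, 2 were listed, both higher in OX, where 57.7% of listed entries were higher. RPOTM, which encodes the phage-type RNA polymerase of mitochondria, was 4.62 FPKM in OX and 2.2 FPKM in wild type, 2.1-fold higher. RPOTMP, whose polymerase serves mitochondria and plastids, was 1.97 FPKM in OX and 0.883 FPKM in wild type, 2.23-fold higher. Neither was listed in the RNAi tables. The share of all tested genes that was listed is unknown, so these counts have no background and say nothing about the pathway as a whole.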

How the data were processed

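The deposited tables hold FPKM values, log2 ratios, p-values and q-values in the column layout of Cuffdiff, per the file headers. TopHat2 2.1.1, Cufflinks 2.2.1, Cuffdiff and the genome TAIR10 are named without role or order, per the submitters' processing notes. The authors deposited 4 lists and 2 overlap tables, and the overlap tables were not used. Each FPKM value stands for a group, so the planned limma test could not be run. The authors' p-values and q-values were not recomputed. Members are genes with a locus on Mt, and roles came from lists of 41 mitochondrial and 75 nuclear identifiers. Members and lists were chosen with earlier results of these data known. By rule the text gives all members with a role, the 4 ORFs of largest and 2 of smallest fold in OX, and nuclear genes from those lists or the chromosome 2 insertion only. Copies shown, ORF315, ORF157, ORF262 and the other ORFs of the RNAi tables were chosen after their values were seen. Deposited start positions were counted from 0 and are printed from 1. RefSeq TAIR10.1 genes were compared by BLAST 2.17.0 (identity of at least 95%, alignments of at least 50 bases), with Python 3.11.15 and pandas 2.3.3. The labels do not say whether replicate libraries were made from different seedlings, so the authors' p-values may measure technical spread.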

Additional observations from a re-analysis of the deposited data

How the results depend on the processing

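No paired analysis was possible because the tables hold 1 value per group, and leaving out a library could not be done for the same reason. Of 35 alternative values, 22 stayed within 1.5 times the reported one. With at least 5 FPKM in the shared column, 17 members were left in OX, with a median fold of 9.36, and 13 in the RNAi tables. A log2 fold limit of 1.5 left 10 members in the RNAi tables, with a median fold of 4.88. With folds from log2(FPKM + 1), the OX median was 2.98, the ratio of the named to the ORF median in OX was 1.34 (2.53 without the added 1), and 12 members of the RNAi tables stayed at least 2-fold lower. With named genes without a long nuclear copy alone, a choice made after seeing the data, 9 members were left in each comparison, with median folds of 16.2 in OX and 4.80 in the RNAi tables. Read by the deposited column labels, also added later, 0 of the 21 members were lower in RNAi. Smaller counts follow from fewer genes, and the lower folds from the added 1. The cause of the label conflict was not tested. Unknown depth limits members under 1 FPKM most, 18 of 31 in OX.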
